A study of Mus musculus with 139 samples.

Results

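Adgrv1 and Pdzd7 encode 2 proteins of the ankle links, the fibres that join the bases of neighbouring stereocilia in a developing hair bundle. Adgrv1 encodes a very large adhesion G protein-coupled receptor whose long extracellular part forms the links, and Pdzd7 encodes a scaffold with PDZ domains that holds the receptor complex inside the stereocilium together with whirlin. In mice the links are transient and are lost as the hair bundle matures, and mice that lack either gene are deaf with disordered bundles. In humans, ADGRV1 is a gene of Usher syndrome type 2, in which hearing loss is joined by loss of vision.

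The genes were taken as the lines of the count table whose Ensembl identifiers map to these symbols, which gave 2 of 55335 lines. The study sequenced RNA of 139 hair cells from mouse cochleae at postnatal days 14 to 16, with 1 library per cell. Outer hair cells (OHCs), which amplify the vibration of the cochlear partition, came from the base (8 cells), the middle (23 cells) and the apex (21 cells) of the cochlear spiral. Inner hair cells (IHCs), which pass the signal to the auditory nerve, came from the base (19 cells), the middle (34 cells) and the apex (34 cells). The base is tuned to high and the apex to low frequencies. All groups share the same labelled tissue and age, and the labels name no strain, genotype, treatment or animal. Each group therefore counts as 1 sample, no difference below was tested, and intervals cover counting error only.

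Totals per cell ran from 71027 to 13576942 counts. The pooled groups held 28574809 counts in basal OHCs and between 94869815 and 199944360 in the other groups. The markers of the labelled type (Slc26a5 and Ocm among those of OHCs, Otof and Slc17a8 among those of IHCs) summed higher than those of the other type in 133 of 139 cells. This asks only which sum was higher, so cells with few marker reads passed too. The labels do not say what the numbers in the cells' titles mean. Of the 139 cells, 58 have numbers above 100, with a median total of 7187428 counts, and 81 have numbers up to 100, with a median total of 3186039. Levels below are given in both series because they differed widely there. Over all cells the series also differ in depth.

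Basal OHCs stood apart from the other groups in their markers. Their general hair cell markers summed to a median of 246 CPM per cell (the gene's reads scaled to library size), against 444 to 4188 CPM in the other 5 groups. The OHC markers summed to a median of 91.3 CPM per cell in basal, 651 in middle and 6111 in apical OHCs. Pooled, they summed to 5326, 4380 and 7180 CPM in these OHCs. The basal pool leaned on its deepest cell, with 8831447 of 28574809 counts. That cell had 11595 CPM of OHC markers and 30269 CPM of blood markers, the highest of the group in both. All 8 basal OHCs had more of the OHC than of the IHC markers, 1 of them at only 2.11 against 0.176 CPM. The pooled blood markers of basal OHCs summed to 19519 CPM, connective tissue markers to 20310 CPM and markers of neurons and glia to 13073 CPM, with all markers of these lists detected. In the other 5 groups the blood sum was at most 3417 CPM, the connective tissue sum at most 4678 CPM and the neuron and glia sum at most 4292 CPM. The supporting cell markers went the other way, with 59.6 CPM in basal OHCs, where Hes5 was at 0, and 63.4 to 1255 CPM elsewhere. The part of these in the low levels of Adgrv1 and Pdzd7 in basal OHCs was not tested.

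Adgrv1 (ENSMUSG00000069170.14) is annotated on the minus strand of chromosome 13 at chr13:81095068-81633154 in GRCm38, a span of 538087 bases. Its 14 transcripts cover 95 merged exons and 24878 exon bases, none of them shared with another gene. Pdzd7 (ENSMUSG00000074818.13) lies on the minus strand of chromosome 19 at chr19:45026906-45045717, a span of 18812 bases. It has 8 transcripts, 17 merged exons and 4055 exon bases, of which 206 overlap exons of Lzts2 on the opposite strand. The promoters of both genes are printed to show the region around the RefSeq start site of each gene, and the E-box CANNTG, the core site of basic helix-loop-helix factors such as the hair cell factor ATOH1, is in capitals. They are RefSeq sequences of GRCm38.p6 from 250 bases before to 50 bases after the start site, 5′ to 3′ on the minus strand, at chr13:81633095-81633394 and chr19:45045723-45046022. The RefSeq start of Pdzd7 lies upstream of the GENCODE gene given above, so its window lies just outside that gene, and positions below count from the RefSeq start.
Adgrv1: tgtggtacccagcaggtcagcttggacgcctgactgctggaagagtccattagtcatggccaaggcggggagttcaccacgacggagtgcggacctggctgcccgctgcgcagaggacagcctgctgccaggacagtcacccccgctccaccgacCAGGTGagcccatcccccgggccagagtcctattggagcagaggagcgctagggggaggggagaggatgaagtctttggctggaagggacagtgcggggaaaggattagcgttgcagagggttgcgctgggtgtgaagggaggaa
Pdzd7: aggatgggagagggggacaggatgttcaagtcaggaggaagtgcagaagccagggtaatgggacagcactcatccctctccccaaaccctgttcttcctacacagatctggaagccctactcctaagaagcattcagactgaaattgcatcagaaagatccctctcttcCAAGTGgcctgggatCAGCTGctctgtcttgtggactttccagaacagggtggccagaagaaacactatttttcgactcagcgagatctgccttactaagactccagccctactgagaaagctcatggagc
The Adgrv1 window holds 1 E-box, which begins at −95 from the start site. A CANNTG reads as CANNTG on both strands. The Pdzd7 window holds 2, which begin at −81 and −66, and the second of them reads CAGCTG. Of 32851 promoters of the same length, 72.3% hold at least 1 CANNTG and 16.3% hold CAGCTG, so neither match sets these promoters apart, and a match is no evidence of binding.

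Adgrv1, the receptor of the links, was detected in all 6 groups, with 13248 reads in 63 of 139 cells (45.3%). Its levels were very uneven from cell to cell. In basal OHCs the CPM per cell had a lowest value of 0, a median of 0 and a highest value of 1.52. In middle OHCs these values were 0, 0.19 and 114.5 CPM, and in apical OHCs they were 0, 0 and 199 CPM. Every OHC group thus held cells without a read, and only the middle and apical groups held cells above 100 CPM. Basal IHCs had a lowest value of 0, a median of 0.502 and a highest value of 261 CPM. Middle IHCs had 0, 0 and 799 CPM, and apical IHCs had 0, 0 and 465 CPM. The ranges of all 6 groups overlapped at their low end.

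**Figure D1:**
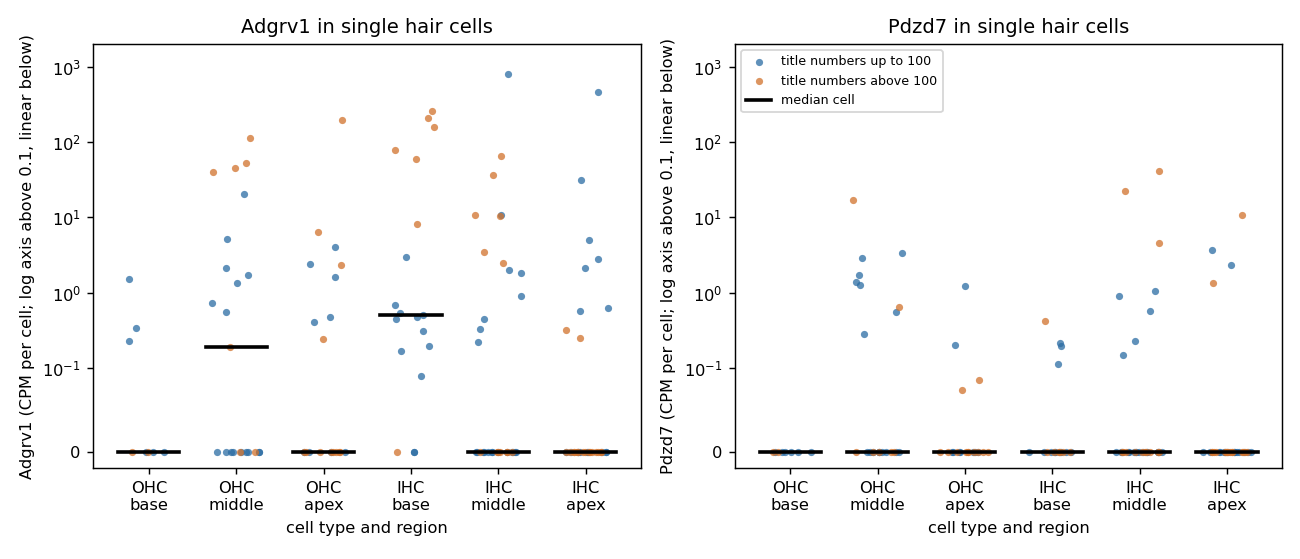
CPM of Adgrv1 and Pdzd7 in each cell, with cell type and region on the x axis and CPM on a y axis that is linear below 0.1 and logarithmic above. Each point is 1 of 139 cells, shifted sideways at random, coloured by whether its title number is above 100, and black bars are medians, which for Adgrv1 are above 0 in basal IHCs and middle OHCs only.

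Pooled over the cells of a group and scaled by the TMM method (trimmed mean of M values), Adgrv1 stood highest in basal IHCs and lowest in basal OHCs. It had 0.349 CPM (95% Poisson interval 0.14 to 0.718) in basal OHCs, from 7 reads, 20.9 CPM (20.1 to 21.7) in middle OHCs and 10.1 CPM (9.50 to 10.8) in apical OHCs. It had 42.2 CPM (41.1 to 43.3) in basal IHCs, 6.81 CPM (6.47 to 7.16) in middle IHCs and 17.3 CPM (16.7 to 18) in apical IHCs. The order was therefore basal IHCs, middle OHCs, apical IHCs, apical OHCs, middle IHCs and basal OHCs. The interquartile ranges of the cells overlapped for each pair of neighbours in this order. The lower quartile was 0 CPM in all groups but basal IHCs (0.18 CPM). Groups with a lower quartile of 0 overlap whatever their levels, so the overlap does not tell whether neighbours differed.

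A few cells carried most of these reads. There were 14 cells with 100 or more Adgrv1 reads, and they held 96.0% of all its reads, while 76 cells had 0, 39 had 1 to 9 and 10 had 10 to 99. The 14 comprised 0 basal, 4 middle and 1 apical OHCs and 5 basal, 3 middle and 1 apical IHCs. The highest single cell held 42.9%, 39.8% and 96.7% of the reads of basal, middle and apical OHCs, and 34.8%, 36% and 96.6% of those of basal, middle and apical IHCs. The pooled levels of both apical groups are thus in effect those of 1 cell each. Apart from that cell, apical OHCs held 34 reads over the other 20 cells and apical IHCs held 88 reads over the other 33.

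The 14 cells were compared with their labels by their markers. The markers of their own type summed higher than those of the other type in 14 of 14, and their totals ran from 679427 to 12100685 counts with 3578 to 11380 genes detected. Myo7a, the hair cell myosin that also joins the Usher complexes, was under 10 CPM in 6 of them. The middle IHC with 799 CPM had 543 Adgrv1 reads in 679427 counts, the lowest total of the 14. Besides 1304 CPM of Otof it had 1815 CPM of the OHC marker Ocm. Its IHC markers summed to 1930 CPM and its OHC markers to 1866 CPM, so its markers barely set the types apart. The apical IHC with 465 CPM had 2479 Adgrv1 reads, 6230 CPM of Otof and 0 of Ocm. Summed markers of neurons and glia were between 610 and 8392 CPM and those of supporting cells between 0 and 1730 CPM in the 14 cells. Those of blood were between 33.7 and 5030 CPM and those of connective tissue between 0.188 and 6287 CPM. The part of these other cell types in the Adgrv1 reads was not tested.

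The 14 cells fell mainly in the series with title numbers above 100, which held 12 of them in its 58 cells, against 2 in the 81 cells with numbers up to 100. Basal IHCs showed this most widely. In the higher-numbered series, 6 of 7 basal IHCs had Adgrv1 reads, with a median of 775 and a highest value of 1933 per cell, while in the lower-numbered series 10 of 12 had reads, with a median of 2 and a highest value of 14. The lowest value was 0 in both series. The pooled totals of these basal IHCs were 51742973 counts in the 7 higher-numbered and 84901192 in the 12 lower-numbered cells. At equal depth, with each cell thinned to 582635 counts, 6 of 7 and 1 of 12 of them kept a read, so here the series differed at matched depth.

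The pooled level of Adgrv1 differed between the series in most groups. In middle OHCs it was 32.6 CPM in the higher-numbered and 0.872 CPM in the lower-numbered cells, and in apical OHCs 14.7 and 0.511 CPM. In basal IHCs it was 94.6 CPM in the higher-numbered and 0.561 CPM in the lower-numbered cells. Apical IHCs went the opposite way, with 0.0358 CPM (3 reads) in the higher-numbered and 64.4 CPM in the lower-numbered cells. In middle IHCs the levels were closer to each other, at 6.74 and 8.49 CPM, though in the lower-numbered series 543 of 594 reads came from 1 cell. Basal OHCs had 0 reads in 2 higher-numbered cells, which allows up to 1.28 CPM at 3 counts, and 0.291 CPM in 6 lower-numbered cells.

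**Figure D2:**
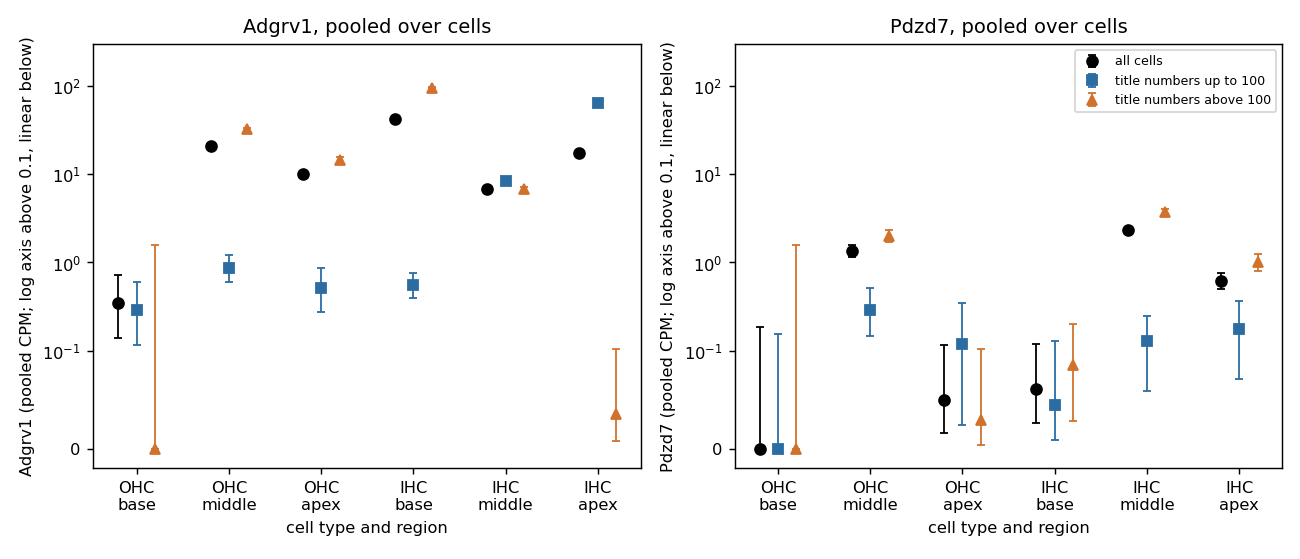
Pooled CPM of Adgrv1 and Pdzd7 by cell type and region on the x axis, with a y axis that is linear below 0.1 and logarithmic above. Black circles are all cells of a group, blue squares cells with title numbers up to 100 and orange triangles those above 100, with 95% Poisson intervals; for Adgrv1 the series lie far apart in basal IHCs (94.6 and 0.561 CPM above and up to 100) and, in the other direction, in apical IHCs (0.0358 and 64.4 CPM).

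The share of cells with an Adgrv1 read gave another view than the pooled level. It was 3 of 8 basal (37.5%), 12 of 23 middle (52.2%) and 9 of 21 apical OHCs (42.9%). It was 16 of 19 basal (84.2%, Clopper-Pearson interval 60.4% to 96.6%), 14 of 34 middle (41.2%) and 9 of 34 apical IHCs (26.5%). Basal IHCs were also deeply sequenced, with a lowest total of 2827490 counts. After thinning, the shares were 1 of 7 basal, 9 of 18 middle (50%) and 5 of 19 apical OHCs (26.3%), and 7 of 19 basal (36.8%), 10 of 32 middle (31.3%) and 4 of 30 apical IHCs (13.3%). Basal IHCs no longer had the highest share, and middle OHCs did.

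Differences between groups are log2 ratios after 1 CPM was added to both levels, a scale that makes the difference of a scarce gene look smaller. They are read against 15004 genes with at least 5 CPM in 1 or more groups, a minimum that Adgrv1 passed and Pdzd7 did not. In the base Adgrv1 was lower in OHCs than in IHCs (−5.00, interval −5.28 to −4.62), at 0.349 CPM against 42.2 CPM. There the median of all genes was −0.89 and 48.9% of genes were lower by 2-fold or more. In the middle it was higher in OHCs by 1.48 (1.37 to 1.60), at 20.9 CPM against 6.81 CPM, where the median was −0.07 and 20.7% of genes were higher by 2-fold or more. In the apex it was −0.72 (−0.86 to −0.59), at 10.1 CPM in OHCs against 17.3 CPM in IHCs, with a median of −0.02, and did not pass 2-fold. The mean of the 3 regions was −1.41 (−1.59 to −1.20), with a median of −0.59 and 39.2% of genes lower by 2-fold or more.

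These directions did not all hold from series to series. In the base the 2 higher-numbered OHCs had 0 reads, so that Adgrv1 was at least 73.7-fold lower than the 94.6 CPM of the IHCs of that series, taking 3 counts as the limit of the pooled OHCs. In the lower-numbered series the difference in the base was −0.27. In the middle it was 2.12 in the higher-numbered and −2.34 in the lower-numbered series, and with equal weight per cell it was −1.32. In the apex it was 3.92 in the higher-numbered and −5.44 in the lower-numbered series. The series thus gave opposite signs in the middle and in the apex, and single cells led some of the levels behind them. In the lower-numbered series 1 middle IHC held 543 of 594 reads and 1 apical IHC held 2479 of 2564. In the higher-numbered series 1 apical OHC held 983 of 1004 reads. With equal weight per cell, that middle IHC enters at 799 CPM, where the median middle IHC had 0 CPM. In the plot of differences, the higher-numbered values that involve basal OHCs depend on the 1 CPM added, since both genes had 0 reads there.

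Along the spiral, Adgrv1 was lower in basal than in apical OHCs (−3.04, −3.37 to −2.61), at 0.349 CPM against 10.1 CPM, where the median of all genes was −0.72 and 47.6% of genes were lower by 2-fold or more. Without the cell with most Adgrv1 reads in each group this difference was −0.15. In IHCs it was higher in the base than in the apex (1.24, 1.15 to 1.33), at 42.2 CPM against 17.3 CPM, with a median of −0.02 and 26.5% of genes higher by 2-fold or more. Without the leading cell of each IHC group the difference was 4.197, and it was 6.53 in the higher-numbered and −5.39 in the lower-numbered series, where the sign turned.

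**Figure D3:**
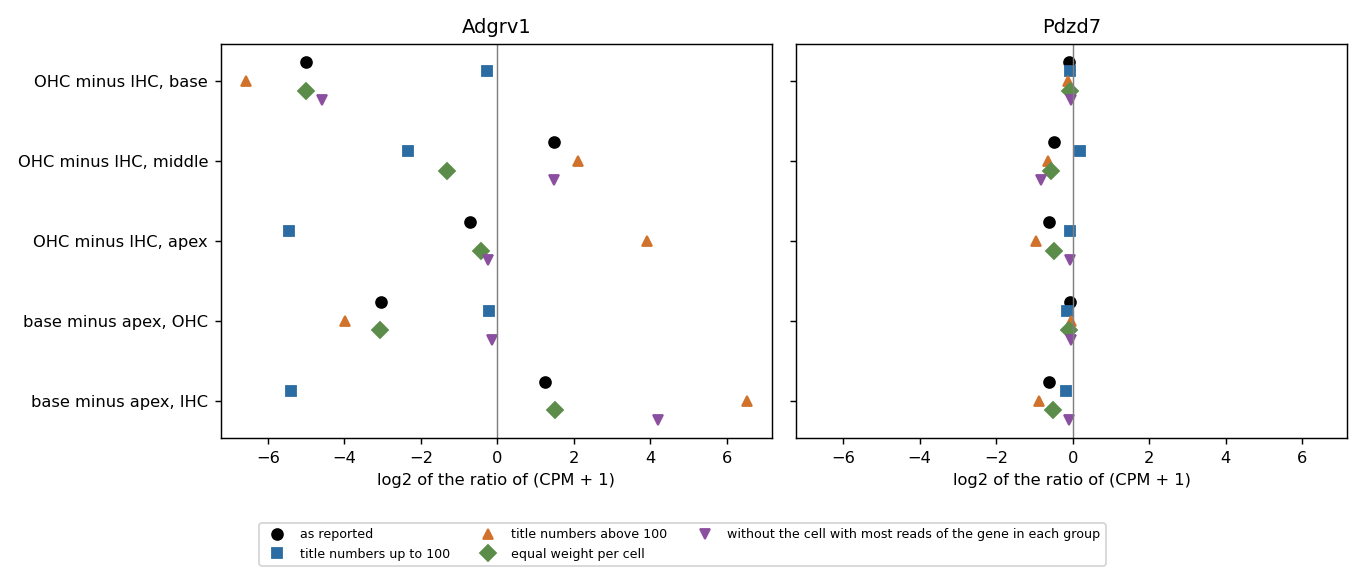
Differences of Adgrv1 and Pdzd7 between OHCs and IHCs in each region and between base and apex in each type, on an x axis of log2 of the ratio of (CPM + 1), with 0 marked. Symbols give the value as reported and 4 alternatives; for Adgrv1 the series with title numbers above and up to 100 stand on opposite sides of 0 in the middle (2.12 and −2.34) and the apex (3.92 and −5.44), and the Pdzd7 values lie within 1 log2 unit of 0.

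Pooled over all cells, Adgrv1 differed between middle and apex in opposite directions in the types. In OHCs the middle was above the apex by 0.98 (0.84 to 1.11), at 20.9 CPM against 10.1 CPM. In IHCs the middle was below the apex (−1.23, −1.35 to −1.11), at 6.81 CPM against 17.3 CPM, where 23% of genes were lower by 2-fold or more. That sign rested on the apical IHC that held 2479 of 2567 reads, since the difference was 1.69 without the leading cell of each group. It was 2.90 in the higher-numbered and −2.79 in the lower-numbered series. Base against middle was −4.02 (−4.31 to −3.62) in OHCs, where 50.4% of genes were lower by 2-fold or more, and 2.47 (2.37 to 2.57) in IHCs, where 20.4% were higher by 2-fold or more. The IHC value turned to −2.60 in the lower-numbered series and was 3.63 in the higher-numbered series. The OHC value was −0.54 in the lower-numbered series, and the OHC difference of middle against apex was 3.42 without the leading cells and 0.31 in the lower-numbered series.

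Pdzd7, the scaffold of the complex, had fewer reads, 785 in 29 of 139 cells (20.9%) and 5 of 6 groups. The median cell had 0 CPM in every group, and so had the lowest. The highest cell had 0 CPM in basal, 16.8 in middle and 1.21 in apical OHCs, and 0.414 CPM in basal, 41.4 in middle and 10.8 in apical IHCs. Pooled over all cells, the middle of the cochlea held the highest Pdzd7 levels in both types. It had 0 CPM in basal OHCs, where 3 counts would be 0.149 CPM, 1.36 CPM (1.16 to 1.58) in middle OHCs and 0.0497 CPM (5 reads) in apical OHCs. It had 0.0608 CPM (8 reads) in basal, 2.31 CPM (2.11 to 2.52) in middle and 0.621 CPM (0.5 to 0.761) in apical IHCs. The order was middle IHCs, middle OHCs, apical IHCs, basal IHCs, apical OHCs and basal OHCs. The interquartile ranges of neighbours could only overlap here, since the lower quartile was 0 in every group, so they do not tell whether neighbours differed.

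Pdzd7 rested on even fewer cells than Adgrv1. There were 5 cells with 10 or more of its reads, which held 93.4% of them, and all 5 had title numbers above 100. They were 1 middle OHC with 151 reads, 3 middle IHCs with 277, 178 and 47 reads and 1 apical IHC with 80 reads. These cells had totals of 6685200 to 10408952 counts and 4.52 to 41.4 CPM of Pdzd7. Lzts2, which shares exon bases with Pdzd7, had 12 reads in the apical IHC and 0 in the other 4, so its reads did not accompany those of Pdzd7 there. Over the groups Lzts2 stood at 0.199, 4.59 and 0.0597 CPM in basal, middle and apical OHCs and at 5.22, 6.59 and 7.79 CPM in basal, middle and apical IHCs, an order other than that of Pdzd7.

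In the lower-numbered series Pdzd7 stayed at or below 0.291 CPM in each group. In middle OHCs it was 2.01 CPM in the higher-numbered and 0.291 CPM in the lower-numbered cells, and in middle IHCs 3.70 and 0.129 CPM. In apical IHCs it was 1.01 and 0.176 CPM. Cells with a read were 0 of 8 basal, 9 of 23 middle and 4 of 21 apical OHCs, and 4 of 19 basal, 8 of 34 middle and 4 of 34 apical IHCs. After thinning they were 0 of 7, 4 of 18 and 0 of 19 OHCs and 0 of 19, 5 of 32 and 2 of 30 IHCs, from base to apex. At this depth both middle groups and apical IHCs kept cells with a read.

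Differences of Pdzd7 between the types were small on this scale. In the middle it was −0.49 (−0.70 to −0.27), at 1.36 CPM in OHCs and 2.31 CPM in IHCs, with a median of all genes of −0.07, and in the lower-numbered series it was 0.19. In the apex it was −0.63 (−0.79 to −0.43), at 0.0497 CPM in OHCs and 0.621 CPM in IHCs, which as a plain ratio of levels is 12.5 times more in IHCs (5.16 to 39.3). Without the leading cell of each apical group that difference was −0.08. In the base of the cochlea no fold is given, since OHCs had 0 and IHCs 8 reads. The mean of the 3 regions was −0.40 (−0.55 to −0.16), and 0.02 in the lower-numbered series, where the sign turned.

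Along the spiral, pooled Pdzd7 was lower at both ends than in the middle in both types, though not in each series. Middle against apex was 1.17 (0.96 to 1.35) in OHCs, at 1.36 CPM against 0.0497 CPM, where 31.4% of genes were higher by 2-fold or more. A single middle OHC held 151 of the 169 reads, and without the leading cells this difference was 0.17. It was 1.03 (0.82 to 1.23) in IHCs, at 2.31 CPM against 0.621 CPM, where 28.7% were higher by 2-fold or more. In the lower-numbered IHCs it turned to −0.06, at 0.129 CPM in the middle against 0.176 CPM in the apex. Base against middle was −1.64 (−1.78 to −1.47) in IHCs, at 0.0608 CPM against 2.31 CPM, where 31.9% of genes were lower by 2-fold or more, and −0.11 in the lower-numbered series. Base against apex was −0.61 (−0.78 to −0.42) in IHCs, at 0.0608 CPM against 0.621 CPM, and −0.09 without the leading cells. Basal and apical OHCs had 0 and 5 reads, too few for a fold.

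Levels of the 2 genes can be set side by side per kilobase of exon, though the labels do not say where along the transcript reads fell. On this scale Adgrv1 stood at 0.838 and Pdzd7 at 0.336 CPM per kilobase in middle OHCs, and at 0.407 and 0.0123 in apical OHCs. In basal IHCs Adgrv1 stood at 1.70 and Pdzd7 at 0.015 CPM per kilobase, and in apical IHCs at 0.696 and 0.153. In middle IHCs the order was turned, with 0.274 for Adgrv1 and 0.569 for Pdzd7. That turn rests on the higher-numbered middle IHCs, which held 502 of the 511 Pdzd7 reads. In the lower-numbered middle IHCs the pooled levels were 8.49 CPM for Adgrv1 and 0.129 CPM for Pdzd7. The genes thus did not share their peak group.

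Reads of both genes met in few cells. There were 17 cells with reads of both, 46 with Adgrv1 alone, 12 with Pdzd7 alone and 64 with neither. Only 1 cell had at least 100 Adgrv1 and at least 10 Pdzd7 reads, a middle OHC with 1031 and 151. This cell had 8392 CPM of neuron and glia markers and 6287 CPM of connective tissue markers. Mitochondrial genes took 8.83% and CT010467.1 9.80% of its counts. The part of these in its reads was not tested. Of the other 4 leading Pdzd7 cells, 2 middle IHCs had 23 and 26 Adgrv1 reads and the remaining cells had 0. After thinning, 7 of 125 cells kept reads of both, out of 36 with Adgrv1 and 11 with Pdzd7. Within groups the Spearman correlation of the thinned reads was 0.18 in middle OHCs (18 cells), 0.30 in middle IHCs (32 cells) and 0.29 in apical IHCs (30 cells), values that in such sparse counts describe these cells only.

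**Figure D4:**
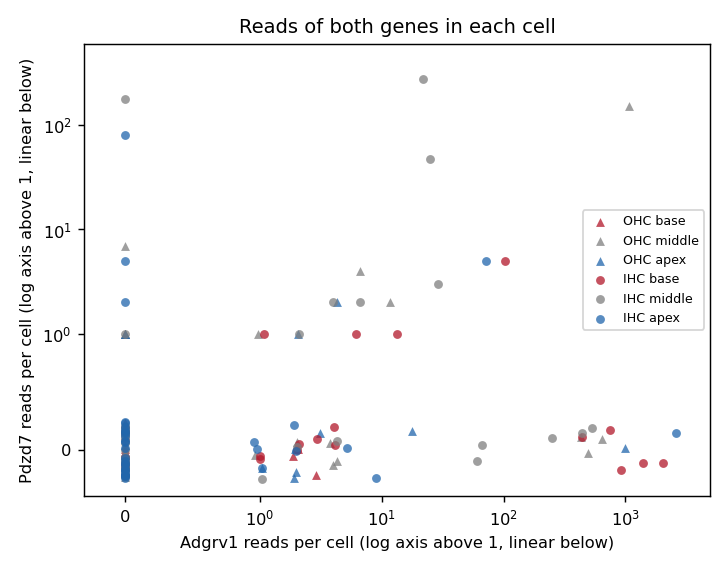
Reads of Adgrv1 (x axis) and Pdzd7 (y axis) in each of 139 cells, both axes linear below 1 and logarithmic above, with triangles for OHCs, circles for IHCs and colour for region. Points are shifted slightly at random so that cells at 0 reads can be told apart; 1 cell, a middle OHC with 1031 and 151 reads, stands high on both axes.

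Adgrv1 reads also went with how many genes a cell showed, in some groups. The Spearman correlation of thinned Adgrv1 reads with genes detected before thinning was 0.57 in middle (18 cells) and 0.12 in apical OHCs (19 cells). The value of 0.61 in basal OHCs rests on 1 cell, since only 1 of the 7 thinned cells kept an Adgrv1 read. In IHCs the correlation was −0.22 in the base (19 cells), 0.54 in the middle (32 cells) and 0.24 in the apex (30 cells). Both measures come from the same libraries.

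The partners of the ankle links and the other Usher complexes were taken as a list of 11 genes, all of which passed 5 CPM. In the base 0 of 11 were higher and 9 lower by 2-fold or more in OHCs than in IHCs, where 16.1% of all genes were higher and 48.9% lower, with a median of −2.40 against −0.89 for all genes. In the middle 1 was higher and 5 lower, where 20.7% of all genes were higher and 29.7% lower, with a median of −0.47 against −0.07. The 1 higher gene was Ush1g, which passed 5 CPM only through middle OHCs. In the apex 6 were higher and 1 lower, where 28.6% of all genes were higher and 32.4% lower, with a median of 1.37 against −0.02. Pooled over all cells, Adgrv1 had the sign of the list median in the base and not in the middle or the apex. Within the series the apex signs were the same, with list medians of 0.96 in the higher-numbered and −0.84 in the lower-numbered series beside 3.92 and −5.44 for Adgrv1. In the middle the list medians were −0.37 in the higher-numbered and −1.55 in the lower-numbered series, beside 2.12 and −2.34 for Adgrv1.

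Whrn encodes whirlin, the scaffold that binds both proteins at the ankle links. It had 0.249 CPM in basal, 16.5 in middle and 57.7 in apical OHCs, and 52 CPM in basal, 143 in middle and 12.5 in apical IHCs. Vezt encodes vezatin, a membrane protein of the ankle links, and had 0.448, 48.6 and 136 CPM in basal, middle and apical OHCs and 86.0, 290 and 358 CPM in basal, middle and apical IHCs. Myo7a had 1.10, 19.7 and 72.6 CPM in these OHCs and 47.4, 52.7 and 27.4 CPM in these IHCs. In all 3 the basal OHCs were lowest, as they were for Adgrv1 and Pdzd7. Of the rest of the list, Cdh23, Pcdh15, Myo15a and Eps8 were also lowest there, while Ush1c, Clrn1, Cib2 and Ush1g were not. Ush1c had 157 CPM in basal and 130 CPM in apical OHCs, and Clrn1 33.6 CPM in basal and 24.9 CPM in middle OHCs. Unlike pooled Adgrv1, Whrn, Vezt and Myo7a were higher in apical than in middle OHCs.

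The tip link and transport genes of the list did not share 1 peak group. Cib2, which encodes a calcium-binding partner of the transduction channel, peaked in basal IHCs like Adgrv1, with 510, 966 and 1491 CPM in basal, middle and apical OHCs and 2396, 1341 and 364 CPM in basal, middle and apical IHCs. Pcdh15, which encodes the lower part of the tip link, peaked in apical OHCs, with 0.996, 2.07 and 163 CPM in these OHCs and 97.1, 14.3 and 22.2 CPM in these IHCs. Eps8, which encodes an actin regulator at stereocilia tips, had 0.149 CPM in basal OHCs and 0.98 CPM in basal IHCs, the lowest values of both types. Ush1g, which encodes the Usher scaffold SANS, had 5.40 CPM in middle OHCs, 1.64 CPM in middle IHCs and at most 0.199 CPM elsewhere. It had reads in 16 of 139 cells and passed 5 CPM only through middle OHCs. Its peak there is thus partly set by that minimum and is not read as a likeness to Pdzd7.

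Between base and apex the list differed by type. In OHCs 0 of 11 were higher and 9 lower in the base than in the apex, where 17.4% of all genes were higher and 47.6% lower, with a median of −3.31 against −0.72 for all genes. In IHCs 5 were higher and 2 lower in the base, where 26.5% of all genes were higher and 31.5% lower, with a median of 0.80 against −0.02. The IHC median was 0.86 in the higher-numbered and 0.89 in the lower-numbered series, while the OHC median was −5.35 and −0.21. Adgrv1 had the sign of the list in both types when all cells were pooled, but not in the lower-numbered IHCs, where it was −5.39.

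**Figure D5:**
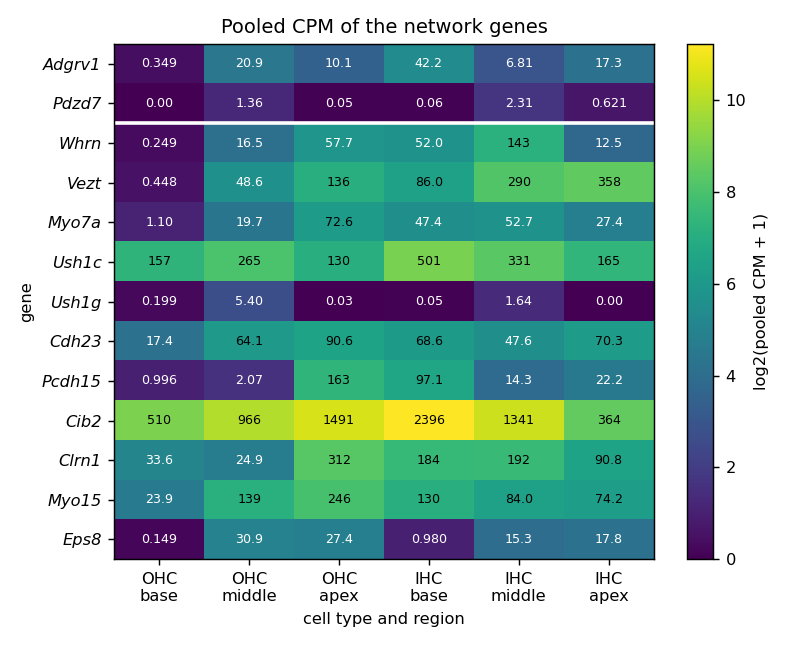
Pooled CPM of Adgrv1 and Pdzd7 (above the white line) and of 11 genes of the ankle link and Usher network (below it), 1 gene per line, with cell type and region on the x axis. Numbers are CPM and colour is log2 of (CPM + 1). The basal OHC column is lowest for both ankle link genes and for Whrn, Vezt and Myo7a, at 0.249, 0.448 and 1.10 CPM, but not for Ush1c, Clrn1, Cib2 and Ush1g.

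Adgrv1 belongs to the adhesion G protein-coupled receptors, of which 29 others were in the table and 13 passed 5 CPM. In the base 5 were higher and 5 lower by 2-fold or more in OHCs than in IHCs, where 16.1% of all genes were higher and 48.9% lower, and their median was 0.04 against −0.89. In the middle 5 were higher and 3 lower, against 20.7% and 29.7% of all genes. In the apex 2 were higher and 5 lower, against 28.6% and 32.4% of all genes. Celsr2, a receptor of planar cell polarity, had 1.54, 86.0 and 61.3 CPM in basal, middle and apical OHCs and 105.5, 160 and 81.4 CPM in basal, middle and apical IHCs. Adgrl3, a latrophilin, had its highest level where Adgrv1 had its lowest, with 159 CPM in basal OHCs and 1.39 CPM in basal IHCs. Adgrg2, Adgrg6, Adgrf1 and Adgrb1 also peaked in basal OHCs, at 123, 68.3, 31.9 and 9.96 CPM, and the other receptors past 5 CPM peaked elsewhere. Adgrf1 passed 5 CPM only through that group, which was also high in blood, connective tissue and nerve markers. In the base, 5 of the 13 receptors were higher and 3 lower than in the apex in OHCs, against 17.4% and 47.6% of all genes. In IHCs 2 were higher and 4 lower in the base than in the apex, against 26.5% and 31.5% of all genes.

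The genes whose thinned reads followed those of Adgrv1 most closely from cell to cell, among 2310 genes compared, were Gpi1, Nsd2, Fbxl20, Wwc2 and Fip1l1. Their mean Spearman correlation over 5 groups was between 0.45 for Fip1l1 and 0.50 for Gpi1, and within single groups it ran from 0.0458 for Fip1l1 to 0.862 for Wwc2. For Pdzd7 they were Alyref, Cnot4, Tmcc3, Maco1 and Coro1c, with means of 0.43 to 0.48 over 3 groups. No gene was in both lists. All points share their libraries, and the highest of many correlations in sparse counts are high by selection.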

How the data were processed

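The authors deposited 1 table of raw read counts per gene for 139 single-cell libraries, per the labels from an Illumina HiSeq 2500. Trimmomatic, HISAT2, featureCounts, Subread 1.4.6 and GRCm38 (mm10) are named in the submitters' processing notes, and the role of each is not stated there. Whether counting used strand, how it treated multi-mapping reads and whether molecular identifiers were used is not stated, so reads in the exon bases that Pdzd7 shares with Lzts2 could belong to either gene. Columns were matched to samples by title, and 0 columns stayed unused. Identifiers were looked up in GENCODE M21, where 55154 matched without and 54587 with their version. Lines that had no symbol (181, with 0.00885% of all counts) stayed out of lists.

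The counts of each group's cells were added up and scaled with TMM factors from edgeR 4.0.16 (R 4.3.3) into pooled CPM. The CPM of a cell is scaled to its own total. Differences are log2 ratios with 1 CPM added to each level. Intervals are exact Poisson for levels and Clopper-Pearson for shares, at 95%, and a count of 0 is given the limit of 3 counts. The interval of a log2 difference sets the lower Poisson end of each level against the upper end of the other, so its coverage is not 95%. For the mean of the regions these ends were averaged. The interval of a plain ratio is exact conditional binomial, at 95%. For shares at equal depth, cells were drawn down to 582635 counts (percentile 10 of the totals), which kept 125 cells and dropped 14. With 1 sample per group no count model was fitted and no test was run. The steps were tested on simulated data. The genes and lists were chosen with earlier results of these data known. Any member of a list with at least 5 CPM in 1 or more groups could be named. Genes most like each ankle link gene were the 5 with the highest mean Spearman correlation over groups of at least 10 thinned cells, among genes with a read in at least 30% of the thinned cells of each such group, leaving out predicted, ribosomal, mitochondrial and pseudogene symbols. The symbol Myo15a was matched to Myo15 through RefSeq synonyms. The alternatives were 3 other scalings, another pseudocount, equal weight per cell, thinned cells, leaving out the deepest cell or the cell with most reads, each title-number series, and 2 cell filters chosen after seeing the data. For the comparisons with the middle, the series and the cell with most reads were tried after seeing the data. Protein sequences were not used here.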

Additional observations from a re-analysis of the deposited data

Results flagged for a closer look

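In basal OHCs 1 of 8 cells lay far from the others in Adgrv1, with 3 reads and 1.52 CPM. Its gap to the next cell took 0.778 of the range of the group, above a limit that about 1 in 20 groups pass by chance. That rate assumes values spread without ties, and 5 of these 8 cells were at 0.

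The difference of Adgrv1 between OHCs and IHCs had opposite signs in the base (−5.00) and the middle (1.48), −6.49 log2 units apart, and in the middle and the apex (−0.72), 2.21 apart. The difference between base and apex had opposite signs in OHCs (−3.04) and IHCs (1.24), −4.28 apart. These differences between regions and types were not tested. Both differences between regions use the middle groups, and the series with title numbers above 100 held 12 of the 14 cells with 100 or more Adgrv1 reads.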

How the results depend on the processing

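No paired analysis was possible because each group counts as 1 sample and the labels do not say whether cells with the same title number are related. For the types and for base against apex, the alternatives gave 84 values within the counting interval of the value reported (2 of them 0, where neither group kept a read), 53 outside it and 7 of opposite sign. The cause was not tested.

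In the cells numbered up to 100, Adgrv1 was −2.34 for OHCs against IHCs in the middle and −5.39 for base against apex in IHCs, both turned, −2.68 in the mean of the regions and −0.23 for base against apex in OHCs. Pdzd7 was 0.19 in the middle and 0.019 in the mean of the regions, both turned, and −0.16 and −0.17 for base against apex in OHCs and IHCs. In the cells numbered above 100, Adgrv1 was 3.92 for OHCs against IHCs in the apex, which turned, −0.18 in the mean of the regions, and −3.97 and 6.53 for base against apex in OHCs and IHCs. The mean and the OHC value there rest on 0 reads in 2 basal OHCs and so on the 1 CPM added. Both of these cells were high in mitochondrial genes and CT010467.1. At 3 counts their pool was at least 11.4-fold lower than that of the apical OHCs of that series, where 1 cell held 983 of 1004 reads. The median apical OHC of that series had 0 reads. Pdzd7 was −0.58 in the mean and −0.89 for base against apex in IHCs.

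With equal weight per cell, Adgrv1 turned to −1.32 in the middle and was −2.24 in the mean and 1.502 for base against apex in IHCs. With thinned cells it turned to −0.83 in the middle and was −1.95 in the mean and 1.41 in IHCs, and Pdzd7 was −0.15 in the mean and −0.35 in IHCs. Without the cell with most reads, Adgrv1 was −1.12 in the mean, −0.15 in OHCs and 4.197 in IHCs, and Pdzd7 −0.086 in IHCs. With a pseudocount of 0.1 CPM, Adgrv1 was −1.91 in the mean and −4.51 in OHCs, and Pdzd7 −1.22 in the mean, −0.58 in OHCs and −2.16 in IHCs. Adgrv1 was 1.13 in IHCs with no TMM factor, 1.403 with factors from genes of at least 5 CPM, 1.37 with median-of-ratios factors (−1.12 in the mean), and 1.08 with only cells whose own type markers exceed the other type, chosen after seeing the data. The other scalings moved the median of all genes in the base from −0.89 to between −1.07 and −0.39, and both genes kept their signs under these 3 scalings in the comparisons of the types and of base with apex. Without the 5 cells high in mitochondrial genes and CT010467.1, also chosen after seeing the data, the middle difference of Adgrv1 was 1.62. Basal OHCs, with 28574809 counts, limit each comparison that uses them.

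For the comparisons with the middle, 3 alternatives were added after seeing the data, and 4 of their values turned sign. Adgrv1 in IHCs was 1.69 for middle against apex without the cell with most reads and 2.90 in the cells numbered above 100, and −2.60 for base against middle in the cells numbered up to 100. Pdzd7 in IHCs was −0.059 for middle against apex in the cells numbered up to 100.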
